A study of Mus musculus with 12 samples.

Results

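The 4 Id genes, Id1, Id2, Id3 and Id4, were followed library by library through the first week after injury in mouse blood. They were picked by name, as 4 of the 37583 genes of the deposited table, and they were picked with their own time course in these libraries in view. Their differences between times are therefore given as a description with no test, and tests are given for other genes of the same pathway. Id1 and Id3 were abundant at 6h and Day1 and far lower at Day7, with no overlap between Day7 and the earlier libraries. Id2 was lower at Day7 on average with overlapping libraries, and Id4 had low values at all 3 times, with 3 reads in all at Day7.

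Id proteins are helix-loop-helix proteins without the basic region that contacts DNA. They pair with E proteins, the common partners of basic helix-loop-helix (bHLH) transcription factors, and hold them in dimers that cannot bind DNA, which keeps progenitor cells from differentiating. In many cell types bone morphogenetic protein (BMP) signalling raises Id1, Id2 and Id3 directly: BMP ligands bind type I and type II receptors, the receptors phosphorylate SMAD1 and SMAD5, and these enter the nucleus with SMAD4 and bind GC-rich elements of the Id promoters. BMP signalling is also a driver of heterotopic ossification, the formation of bone in soft tissue, which the series title names.

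All mice were wild type and all had received burn/tenotomy, a skin burn combined with cutting of a tendon. Blood was enriched on the microfluidic iChip, and total RNA of the enriched cells, labelled as cMPCs (circulating mesenchymal progenitor cells) together with blood cells, was sequenced. The groups were 6h, Day1 and Day7 after injury, with 4 libraries each. Nothing in the labels ties replicates to different animals, and p-values therefore cover library-to-library spread, which may be technical in part. Uninjured mice were not analysed here.

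The libraries held 5098395 to 12379041 recovered reads, and haemoglobin genes took 16.1% to 70.3% of them. The deposited values are reads multiplied by a value of 1 read that differed between libraries, namely 0.0599–0.379 (6h), 0.0314–0.124 (Day1) and 0.0688–0.617 (Day7), so a read weighed most in a Day7 library. Replicate 1 of 6h and replicate 3 of Day7 had the fewest genes with a read, 7631 and 7635, against up to 16647 elsewhere, and results are also given without these 2 libraries. Y-linked genes had reads in replicates 3 and 4 of 6h (76 in each) and in replicates 2, 3 and 4 of Day1 (422 to 853), and 0 reads in the other 7 libraries, which include all of Day7. Defining markers of stromal cells varied widely between libraries: the summed level of 13 fibroblast and mesenchymal genes spanned 13.3–1559 (6h), 342–2094 (Day1) and 58.6–627 (Day7), with Lum at 0 in every 6h library and Pdgfrb at 0 in every Day7 library. In bulk RNA, fewer cells of a type and less RNA per cell cannot be told apart.

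Promoter sequence was available in the RefSeq promoter table (build GRCm38.p6, another build than the mm9 of the submitters' processing notes) for 3 of the 4 genes, Id2, Id3 and Id4. The 250 bases before the start are printed for Id3, whose Day7 libraries lay apart from the earlier ones, and for Id2, whose times overlapped, with capitals marking GGCGCC (the GC-rich SMAD element) and GTCT or its complement AGAC (the SMAD box), searched on both strands. The Id3 stretch lies at chr4:136143572-136143821 on the plus strand and the Id2 stretch at chr12:25096093-25096342 on the minus strand, both written 5′ to 3′ along the gene.
Id3: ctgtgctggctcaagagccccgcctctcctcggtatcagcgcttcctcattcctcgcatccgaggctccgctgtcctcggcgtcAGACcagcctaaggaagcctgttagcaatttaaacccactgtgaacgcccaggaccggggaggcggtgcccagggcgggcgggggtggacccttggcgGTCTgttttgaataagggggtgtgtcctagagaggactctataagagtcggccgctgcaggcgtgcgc
Id2: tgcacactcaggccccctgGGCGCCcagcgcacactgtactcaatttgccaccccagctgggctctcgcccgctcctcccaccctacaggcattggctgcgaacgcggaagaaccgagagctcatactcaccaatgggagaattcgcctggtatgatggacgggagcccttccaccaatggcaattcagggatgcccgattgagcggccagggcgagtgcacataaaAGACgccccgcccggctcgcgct
Both stretches have a GC content of 62.8%. The Id3 stretch holds GTCT or AGAC at 2 places, 166 and 68 bases before the start, and no GGCGCC. The Id2 stretch holds 1 GGCGCC, 231 bases before the start, and 1 AGAC, 23 bases before it. Id2 also holds 1 CANNTG, the E-box that bHLH dimers bind, 196 bases before the start, while the Id3 stretch has none. The Id4 stretch (chr13:48260866-48261115, plus strand, GC content 75.6%) holds 1 GGCGCC, 148 bases before the start, and neither of the other motifs. Among 32851 promoter stretches of the same length in the table, 9.6% hold GGCGCC, 82.9% hold GTCT or AGAC and 66.2% hold CANNTG. The motifs do not overlap each other in these stretches, and a match describes letters and not a bound site.

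Id1 (ENSMUSG00000042745), the member best known as a direct BMP target, had deposited values of 107, 135, 204 and 52.2 in the 4 libraries of 6h. At Day1 they were 71.4, 153, 190 and 122. At Day7 they were 7.57, 0.383, 0 and 5.65. Every Day7 library lay below every earlier one: the highest, replicate 1 of Day7, held 7.57 against 52.2 in the lowest library of 6h. The Day7 values rest on 129 reads in all, of which 110 came from replicate 1. Replicate 3 of Day7 had 0 reads, which allows a value of up to 1.85, the worth of 3 reads there, by counting error alone. Group means were 125 ± 63.3 at 6h, 134 ± 50.04 at Day1 and 3.401 ± 3.79 at Day7 (SD, n = 4 each). The mean at Day7 was thus 39.4-fold lower than at Day1 and 36.7-fold lower than at 6h, or 66.7-fold and 62.0-fold lower without replicate 1 of Day7. As log2(value + 1), where the added 1 shrinks the changes of low genes, the difference of Day7 from Day1 was -5.42 (SE 0.82) and that of Day7 from 6h was -5.24 (SE 0.82), while Day1 differed from 6h by 0.18 (SE 0.82).

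Id3 (ENSMUSG00000007872), which pairs with the same E proteins and often overlaps with Id1 in its expression, had values of 113, 477, 366 and 177 at 6h. At Day1 they were 87.3, 273, 351 and 398. At Day7 they were 22.1, 9.57, 0 and 11.6. The Day7 libraries again all lay below the earlier ones, and the nearest neighbours were replicate 1 of Day7 at 22.1 and replicate 1 of Day1 at 87.3. Its means were 283 ± 168 at 6h, 277 ± 137 at Day1 and 10.8 ± 9.06 at Day7 (SD, n = 4 each), and the Day7 mean was 25.6-fold lower than the Day1 mean and 26.2-fold lower than the 6h mean. Without replicate 1 of Day7 these became 39.2-fold and 40.04-fold. The log2 difference was -5.02 (SE 0.90) for Day7 from Day1, -5.03 (SE 0.90) for Day7 from 6h and -0.02 (SE 0.90) for Day1 from 6h. Of all 11211 genes that passed the filter on low values (4 or more libraries at a value of 1 or above), 14.5% had every Day7 library below every Day1 library, 2.38% had every Day7 library below every 6h library and 1.54% had both, and since these contrasts chose the members nothing is read from the presence of Id1 and Id3 among them.

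Id2 (ENSMUSG00000020644), which lymphoid and natural killer cell lineages also use, behaved differently from library to library. Its 6h values were 26.5, 384, 57.2 and 56.6. Its Day1 values were 27.1, 31.1, 80.6 and 53.7. Its Day7 values were 15.1, 27.2, 1.85 and 14.0. One library stood out, replicate 2 of 6h at 384, and replicate 3 of Day7 at 1.85 (3 reads) was the lowest. Day7 and the earlier groups overlapped, because replicate 2 of Day7 at 27.2 lay above replicate 1 of Day1 and replicate 1 of 6h. Means were 131 ± 169 at 6h, 48.1 ± 24.6 at Day1 and 14.5 ± 10.3 at Day7 (SD, n = 4 each). Day7 was 3.32-fold lower than Day1 and 9.02-fold lower than 6h in the mean, with log2 differences of -1.93 (SE 0.88) and -2.71 (SE 0.88). Without replicate 2 of 6h, Day7 lay 3.22-fold below a 6h mean of 46.8. Day1 differed from 6h by -0.78 (SE 0.88), a difference that came to -0.01 without replicate 2 of 6h.

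Id4 (ENSMUSG00000021379), the member least tied to BMP and best known from neural and mammary cells, had low values that varied between libraries. They were 0, 0.757, 8.93 and 10.4 at 6h, where the first 2 libraries had 0 and 2 reads. At Day1 they were 6.18, 5.12, 8.42 and 0.234, the last on 6 reads. At Day7 they were 0, 0.574, 0 and 0, and replicate 2 held all 3 reads. The ranges overlapped with both earlier groups, since 2 libraries of 6h and 1 of Day1 were below 1 as well. Pooled over libraries, the reads at Day7 gave a level 34.0-fold lower than at Day1 (95% exact counting interval 11.5 to 166) and 60.1-fold lower than at 6h (20.3 to 294), intervals that cover counting error and not the spread between libraries. Replicate 4 of 6h held 174 of the 213 reads at 6h. The log2(value + 1) differences were -2.09 (SE 0.85) for Day7 from Day1, -1.75 (SE 0.85) for Day7 from 6h and 0.34 (SE 0.85) for Day1 from 6h. Id4 overlaps genes annotated on the opposite strand, A330033J07Rik and Gm49291, in the GENCODE reference, and strand use in counting is not given in the sources used here, so reads of Id4 and of these partners cannot be told apart.

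**Figure D1:**
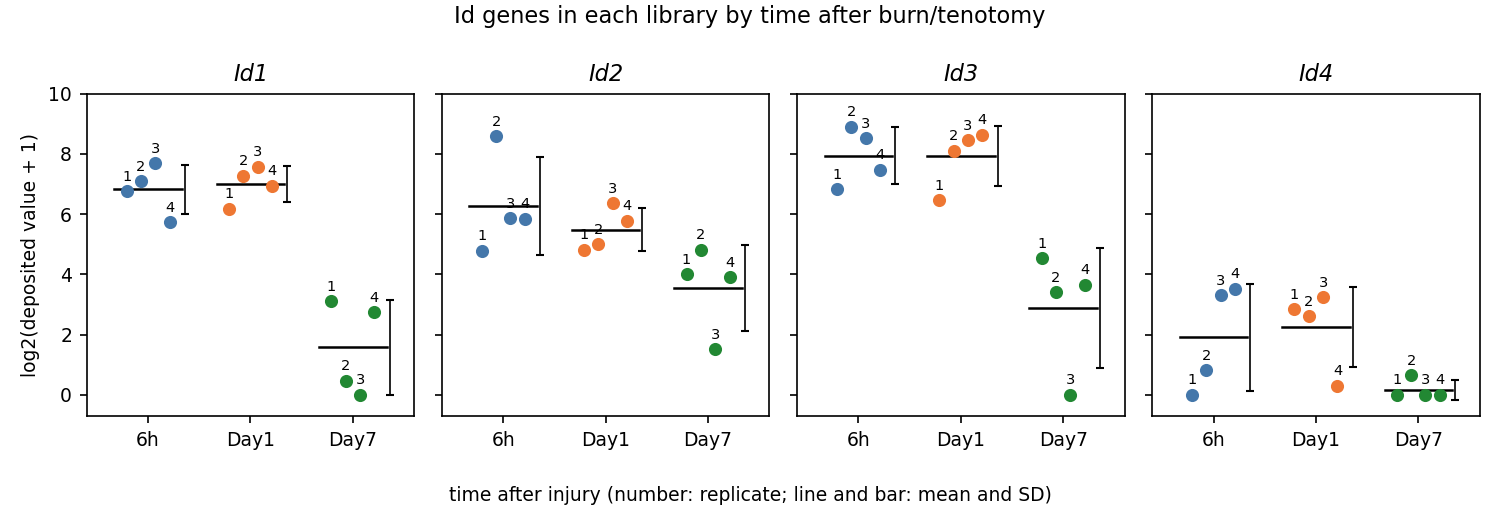
Levels of Id1, Id2, Id3 and Id4 as log2(deposited value + 1) on the vertical axis, by time after injury, with 1 point per library (number: replicate), a line at the mean and a bar for the SD (n = 4). The Day7 points of Id1 and Id3 lie below all earlier points, those of Id2 overlap with them, and Id4 is low at all 3 times.

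Levels of the genes were compared per kilobase of the gene length in the deposited table. At 6h the level per kilobase was 159 ± 94.0 for Id3, 103 ± 133 for Id2, 75.4 ± 38.3 for Id1 and 3.04 ± 3.27 for Id4 (SD, n = 4). Without replicate 2 of 6h, Id2 was at 36.9 ± 13.8 per kilobase and below Id1 at 73.3 ± 46.6 (SD, n = 3). At Day1 it was 155 ± 76.5 for Id3, 81.1 ± 30.3 for Id1, 38.0 ± 19.4 for Id2 and 3.01 ± 2.09 for Id4. At Day7 Id2 had the highest mean level per kilobase, 11.5 ± 8.17, followed by Id3 at 6.06 ± 5.07, Id1 at 2.06 ± 2.29 and Id4 at 0.0866 ± 0.173. Neighbours in these orders differed by less than the sum of their SDs, except at 6h and Day1 Id4, which lay below the next gene by more than that sum. Among the 11211 genes tested, the log2 difference of Day7 from 6h was the lowest of all for Id1 and the second lowest for Id3, with Id2 at place 146 and Id4 at place 722 from the lowest. For Day7 from Day1, Id1 stood at place 4, Id3 at place 14, Id4 at place 1184 and Id2 at place 1475. These places describe the choice of members as much as the members.

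The scale of the deposited values shifts all genes between times, so the differences were also set against the median of all genes tested. That median was 0.52 for Day1 from 6h, -0.48 for Day7 from Day1 and 0.13 for Day7 from 6h. Over the deposited scale and 4 others (TMM, median of ratios, reads outside haemoglobin, all reads), the difference of Day7 from Day1 relative to the median ran from -4.98 to -4.87 for Id1, from -4.72 to -4.43 for Id3, from -1.91 to -1.43 for Id2 and from -1.60 to -1.16 for Id4. All 4 genes thus stayed below the median gene at Day7 relative to Day1 on each of these scales. The comparison of Day1 with 6h did depend on scale: Id3 moved to 1.34 and Id2 to 0.56 when scaled to all reads, where the median of all genes moved to 1.59. Scaled to reads outside haemoglobin, they moved to 0.85 for Id3 and 0.07 for Id2, with that median at 1.24. Without replicate 1 of 6h and replicate 3 of Day7, the log2 differences of Day7 from Day1 were -4.89 for Id1, -1.24 for Id2, -4.05 for Id3 and -2.03 for Id4. Those of Day7 from 6h were -4.73, -2.52, -4.43 and -2.33 in the same order of genes.

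Other features of the libraries moved with time as well. Of the 12 mesothelial markers, 9 were lower at Day7 than at Day1 (limma adjusted p under 0.05), beside 3.59% of all genes tested, and their summed level spanned 27.3–2275 (6h), 564–2744 (Day1) and 3.70–221 (Day7). No mesothelial marker was at 0 in all libraries of a group. Of the 11 fibroblast and mesenchymal markers tested, 4 were lower at Day7 than at Day1 in limma, and 8 of the 11 differences were below 0. Those of Dpt (2.14), Lum (1.56) and Pi16 (0.08) were above 0 in log2 units, and limma called none of them. Of 11 platelet markers 8 were higher at Day7 than at Day1, beside 2.19% of all genes, and their summed level spanned 197–26898 (6h), 968–6313 (Day1) and 24723.5–42152 (Day7), with none at 0 in a whole group. Between Day7 and Day1, edgeR on the recovered reads called 0 members of these 3 lists, while DESeq2 called 11 mesothelial, 5 fibroblast and 10 platelet markers. The part of these cell type differences, and of the missing Y-linked reads, in the Id values was not tested. By library, replicate 2 of 6h had a mesothelial sum of 27.3, a fibroblast sum of 13.3, Id3 at 477 and Id1 at 135. In other libraries these sums and the Id values went together. Replicate 3 of 6h had sums of 2275 and 1559, Id1 at 204 and Id3 at 366. Replicate 1 of Day1 had the lowest sums of its group, 564 and 342, with Id1 at 71.4 and Id3 at 87.3. Replicate 3 of Day7 had sums of 3.70 and 58.6 and 0 reads of Id1 and Id3. Replicate 4 of 6h had a platelet sum of 26898, Id1 at 52.2 and Id3 at 177. In the 3 libraries of 6h and Day1 without Y-linked reads, Id1 was 71.4 to 135 and Id3 was 87.3 to 477.

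**Figure D2:**
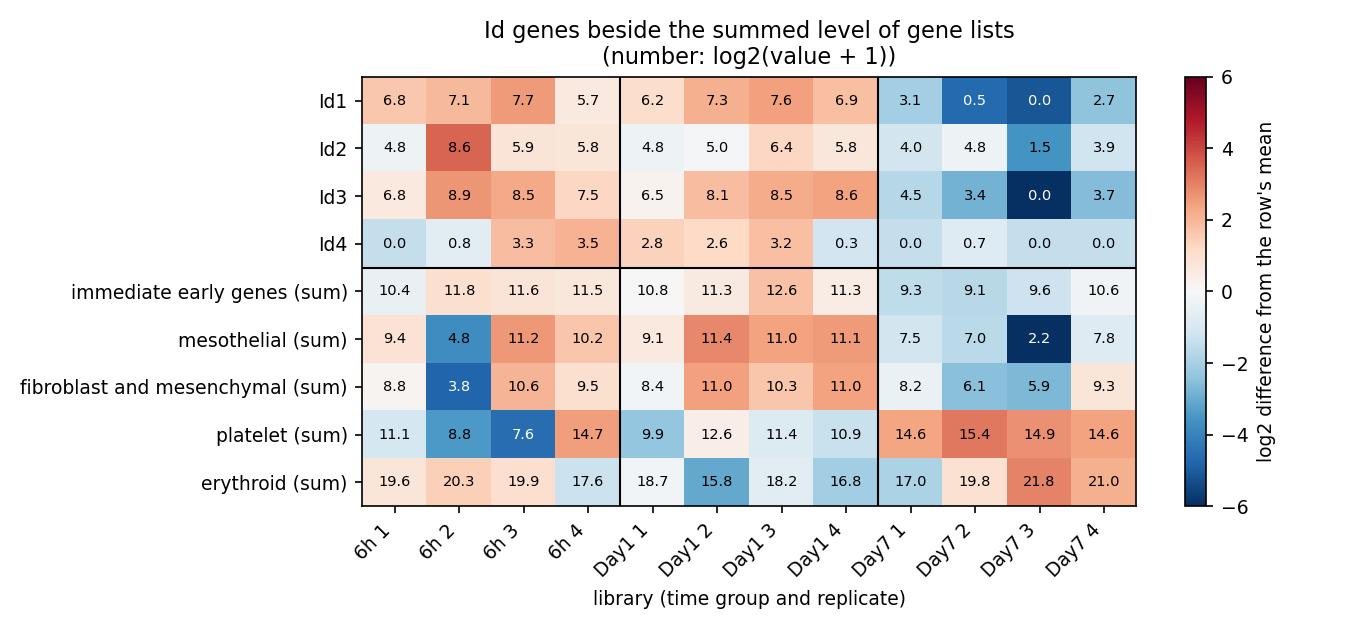
Rows are the 4 Id genes and the summed level of 5 gene lists, columns are the 12 libraries in time order, numbers are log2(value + 1), and colour is the log2 difference from the mean of the row. Id1 and Id3 are low in all 4 Day7 libraries, platelet sums are high there, and replicate 2 of 6h combines high Id2 and Id3 with low mesothelial and fibroblast sums.

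The endothelium is a further known site of high Id1 and Id3 expression, and its markers were measured beside them. The summed level of 12 endothelial markers spanned 23.1–791 (6h), 71.3–280 (Day1) and 144–738 (Day7). None of the 7 that were tested was called between Day7 and Day1 by limma, with 3 at an unadjusted p under 0.05, and 5 of the 7 differences were above 0. The 2 below 0 were those of Kdr and Ptprb. Kdr averaged 16.9 ± 13.6 at Day1 and 3.51 ± 2.48 at Day7 (log2 difference -2.03, SE 0.94, limma adjusted p = 0.154). Ptprb averaged 2.06 ± 1.77 at Day1 and 0.688 ± 1.38 at Day7 (log2 difference -0.93, SE 0.57, limma adjusted p = 0.283). Cdh5, Cldn5, Robo4 and Tek were at 0 in every 6h library and had 1 to 63 reads each over all 12 libraries. The part of endothelial cells in the Id values was not tested. The most abundant endothelial marker was Esam, which platelets also express. The 5 markers with differences above 0, Pecam1, Tie1, Esam, Egfl7 and Plvap, each had their highest 6h value in replicate 4. That library had a platelet sum of 26898. The part of platelets in these marker values was not tested.

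Genes of the BMP pathway other than the Id genes were read from a fit across the whole table. Of 65 in the table, 34 passed the filter on low values. The 65 include genes of activin, a related ligand, among them Inhba, Inhbb and Fst. Fst was 1 of the 2 genes called lower between Day7 and 6h below. Between Day7 and Day1, 5 of the 34 were lower and 0 were higher (limma, adjusted p under 0.05), a share of 14.7% lower beside 3.59% of all genes tested. Their median log2 difference was -1.88, beside -0.48 over all genes, and 28 of the 34 were below 0 beside 61.8% of all genes. Between Day7 and 6h, 2 were lower and 0 higher, a share of 5.88% beside 0.277% of all genes called lower, with a median of -0.73 beside 0.13. Between Day1 and 6h none was called by limma or edgeR and 2 by DESeq2, with 6 at an unadjusted p under 0.05, beside 0.169% of all genes called. The 5 calls between Day7 and Day1 depended on the setting: edgeR on the recovered reads called 0 (and 1 gene over the whole table), DESeq2 called 12, and limma called 0 with a term for Y-linked reads. Leaving out any one of Day1 replicates 2, 3 and 4 and Day7 replicates 2 and 3 also gave 0, leaving out Day7 replicate 4 gave 1, and leaving out 6h replicate 1 or 4 gave 9 or 10. The 2 calls between Day7 and 6h came to 0 without any one of 6h replicates 1, 2 and 3, Day1 replicates 2 and 3 and Day7 replicate 4, and to 1 lower without any one of Day1 replicates 1 and 4 and Day7 replicate 1. Without Day7 replicate 2 or 3 the sole call was 1 gene higher at Day7, and without 6h replicate 4 there were 3 lower and 1 higher. For the same comparison edgeR called 1 lower and 1 higher, and DESeq2 called 7 lower and 2 higher.

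Among the ligands, 4 of 16 were tested and 0 were called in any comparison by limma, edgeR or DESeq2, with 2 at an unadjusted p under 0.05 between Day7 and Day1. The most abundant was Inhba, which encodes the subunit of activin A, with 0, 109, 5.31 and 0.240 at 6h, 1.85, 3.42, 8.04 and 8.29 at Day1, and 1.03, 0, 0 and 0 at Day7. Its highest value fell in replicate 2 of 6h, the library that was also highest for Id2 and Id3. The log2 difference of Day7 from Day1 for Inhba was -2.26 (SE 1.07, limma adjusted p = 0.163). Of the 4 ligand differences between these times, 3 were below 0. Bmp2 went the other way, with 0.742, 4.58, 7.81 and 0.234 at Day1 and 19.9, 25.8, 0 and 21.3 at Day7. Its log2 difference was 1.72 (SE 1.17, limma adjusted p = 0.328). Bmp4 averaged 10.3 ± 10.2 at Day1 and 0.863 ± 0.913 at Day7 (log2 difference -2.31, SE 0.89, limma adjusted p = 0.096).

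Of the receptors and co-receptors, 9 of 11 were tested and 2 were lower at Day7 than at Day1 in limma, beside 3.59% of all genes. Between these times edgeR called 0 of the list and DESeq2 2. Bmpr1a, the main type I receptor for BMP2 and BMP4, had 1.17, 0, 0 and 0.665 at Day7, against 2.10, 6.97, 11.98 and 19.7 at Day1, with a log2 difference of -2.71 (SE 0.81, limma adjusted p = 0.048). Every Day7 library lay below every Day1 library, as in 14.5% of all genes tested. Rgmb, a BMP co-receptor of the repulsive guidance molecule family, had 1 read in all at Day7 and 542 at Day1, a pooled level 168-fold lower (95% exact counting interval 30.0 to 6637), with a limma log2 difference of -2.64 (SE 0.76, adjusted p = 0.044). Hfe2, which encodes hemojuvelin, the co-receptor that drives hepcidin in liver, was listed at 0 in all 6h libraries and had 11.1, 0.191, 57.4 and 5.65 at Day7, against 4.82, 3.71, 4.10 and 0.156 at Day1 (log2 difference 1.28, SE 0.94, limma adjusted p = 0.368). Hfe2 was thus highest in replicate 3 of Day7, where Id1 and Id3 had 0 reads.

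The secreted antagonists, which bind BMP or activin ligands outside the cell, held the most limma calls, 3 of 7 tested members lower at Day7 than at Day1 and 2 lower at Day7 than at 6h. Of all genes tested, 3.59% and 0.277% were called lower in these comparisons. Between Day7 and Day1 edgeR called 0 of the list and DESeq2 6, and between Day7 and 6h they called 1 and 3. Twsg1, a partner of chordin in BMP binding, had 91.1, 33.7, 87.4 and 24.8 at 6h, 17.3, 88.3, 35.3 and 102 at Day1, and 5.71, 1.53, 1.23 and 7.32 at Day7. Its Day7 libraries all lay below those of both earlier groups, as in 1.54% of all genes tested. Its log2 difference was -3.56 (SE 0.81, limma adjusted p = 0.026) for Day7 from Day1 and -3.62 (SE 0.81, adjusted p = 0.036) for Day7 from 6h. Nbl1, an antagonist of the DAN family and the most abundant of the list, averaged 19.3 ± 20.7 at Day7 and 236 ± 141 at Day1 (SD, n = 4 each; log2 difference -4.04, SE 1.19, limma adjusted p = 0.046). The groups overlapped, since replicate 4 of Day7 at 46.2 lay above replicate 1 of Day1 at 36.3. Fstl1, a follistatin-like glycoprotein of stromal cells, averaged 1.44 ± 1.18 at Day7 and 31.8 ± 26.2 at Day1 (log2 difference -3.49, SE 0.98, limma adjusted p = 0.041). Fst, which encodes follistatin, the activin antagonist, had 1 read in all at Day7 and 363 at 6h, a pooled level 307-fold lower (54.8 to 12166), with a limma log2 difference of -3.82 (SE 0.93, adjusted p = 0.046). The mesothelial sums given above were also lower in every Day7 library than in every Day1 library, and their part in these differences was not tested.

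Inside the cell, 3 of 4 BMP SMAD genes were tested and limma, edgeR and DESeq2 called 0 of them, with 1 at an unadjusted p under 0.05 between Day7 and Day1. Smad4, the shared partner, had a log2 difference of -0.91 (SE 0.96, limma adjusted p = 0.543) and averaged 8.64 ± 11.7 at Day7 and 8.13 ± 1.88 at Day1. All 7 intracellular inhibitors were tested. Limma and edgeR called 0 of them between Day7 and Day1 and DESeq2 called 3, with 4 at an unadjusted p under 0.05 in limma. Ski, a co-repressor of SMADs and the most abundant of them, had 27.3, 22.0, 13.6 and 14.97 at Day7, against 11.1, 30.8, 20.2 and 37.4 at Day1 (log2 difference -0.26, SE 0.78, limma adjusted p = 0.843). Smad6, a feedback inhibitor that BMP raises like the Id genes and that was singled out after its values were seen, had 1 read in all at Day7 and 408 at Day1, a pooled level 126-fold lower (22.5 to 4999), but its limma log2 difference of -2.28 (SE 0.86, adjusted p = 0.089) did not pass the threshold. Of the 7 inhibitor differences of Day7 from Day1, 5 were below 0. Smurf2 of the same list went the other way, with 26.0, 20.3, 34.5 and 22.9 at Day7 against 4.33, 10.7, 4.47 and 4.67 at Day1. Its Day7 libraries all lay above those of Day1, as 8.47% of all genes did. Its log2 difference was 2.00 (SE 0.90, limma adjusted p = 0.144).

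Of 11 other BMP targets, 4 were tested and limma called 0 in any comparison. Between Day7 and Day1, 2 were at an unadjusted p under 0.05 in limma, edgeR called 0 and DESeq2 called 1. Between Day7 and 6h, edgeR and DESeq2 each called 1. Between Day1 and 6h, edgeR called 0 and DESeq2 called 1. The most abundant was Hamp, which encodes the liver hormone hepcidin and is raised by BMP6 and hemojuvelin in hepatocytes. Its values were 0, 0, 0.483 and 2.04 at 6h, 15.4, 26.1, 29.3 and 59.9 at Day1, and 514, 4.40, 0 and 223 at Day7. The 2 Day7 libraries highest for Hamp, replicates 1 and 4, were also those with the highest summed level of 10 hepatocyte markers at Day7, 29004 and 9294 in summed value. The part of liver transcripts in the Hamp values was not tested. The difference of Day7 from Day1 for Hamp was -0.10 in log2 units (SE 1.31, limma adjusted p = 0.968), although its mean was higher at Day7, 185 ± 243, than at Day1, 32.7 ± 19.1. Against 6h, Hamp was higher by 4.37 at Day1 (SE 1.31, limma adjusted p = 0.219) and by 4.27 at Day7 (SE 1.31, limma adjusted p = 0.091).

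**Figure D3:**
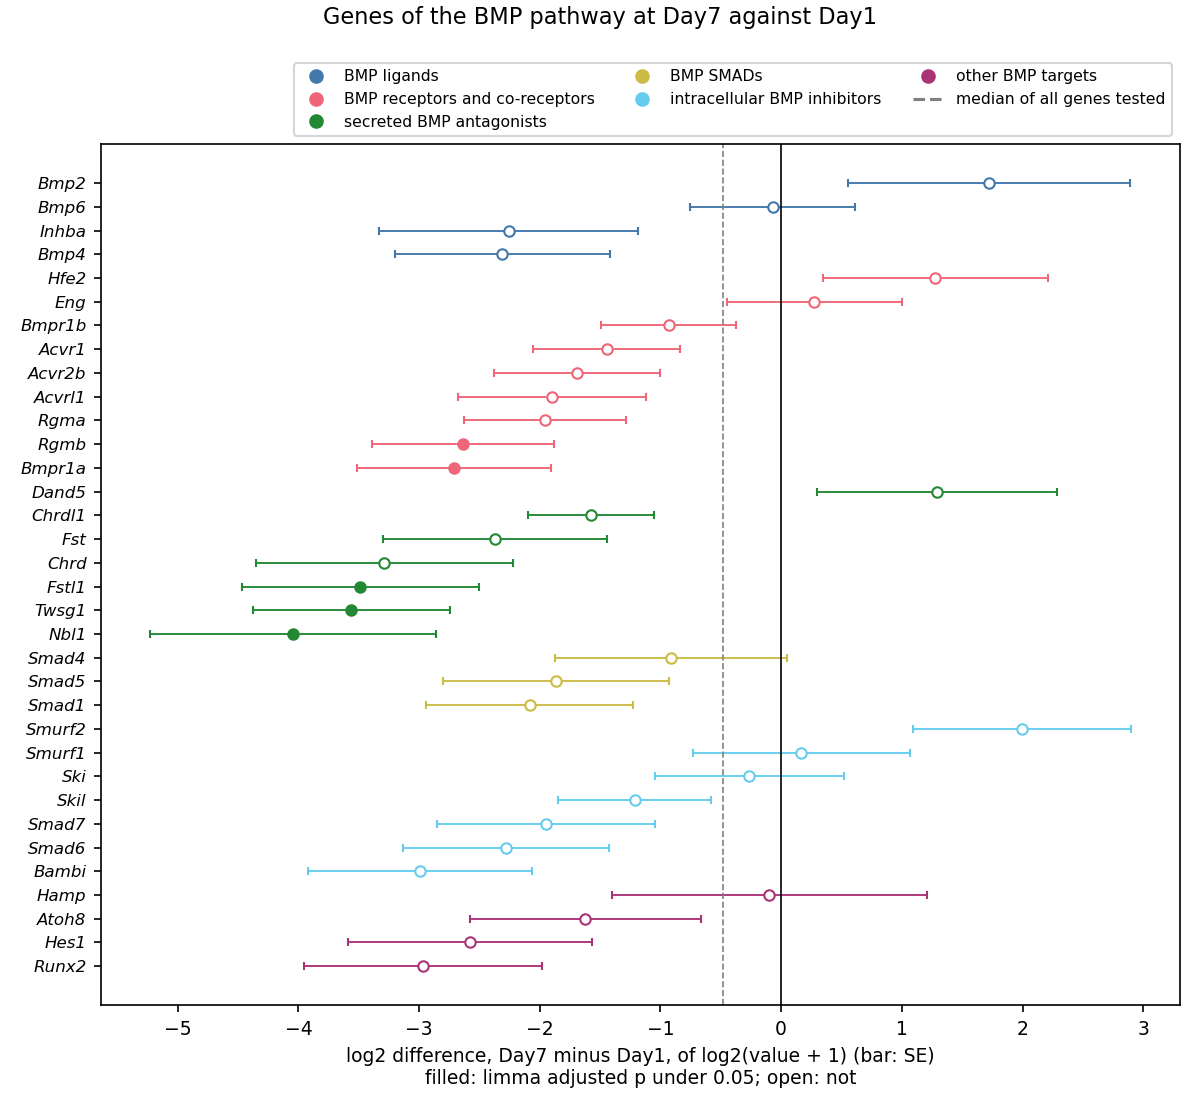
Log2 difference of Day7 from Day1 on the log2(value + 1) scale for the 34 BMP pathway genes tested, with bars for the SE, coloured by role, filled where the limma adjusted p is under 0.05. The 5 filled points are 2 receptors or co-receptors and 3 secreted antagonists, all below 0, and the dashed line marks the median of all genes, -0.48.

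The partners of Id proteins were read from the same fit. All 3 E protein genes were tested, and limma and edgeR called 0 between Day7 and Day1 while DESeq2 called 1, with 1 at an unadjusted p under 0.05 in limma. Tcf4, the most abundant of them, averaged 8.85 ± 7.20 at Day7 and 57.5 ± 41.2 at Day1 (log2 difference -2.93, SE 0.91, limma adjusted p = 0.053). Of 18 tissue-specific bHLH factors, the activators whose dimers with E proteins the Id proteins oppose, 5 were tested and 1 was lower at Day7 than at Day1, beside 3.59% of all genes. That gene, Hand2, a factor of heart and limb mesenchyme, had 3 reads at Day7 and 947 at Day1, a pooled level 97.7-fold lower (33.3 to 475), with a limma log2 difference of -3.04 (SE 0.86, adjusted p = 0.042). Tal1, a factor of erythroid and megakaryocyte cells and the most abundant of the list, had 63.6, 105, 45.03 and 165 at Day7, against 16.7, 19.8, 26.2 and 16.3 at Day1. Its Day7 libraries all lay above those of Day1, as 8.47% of all genes did, but the log2 difference of 2.06 (SE 0.88, limma adjusted p = 0.123) did not pass the threshold.

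Id1, Id2 and Id3 are also known as early response genes in serum-stimulated cells, and a list of 21 immediate early genes was read beside them. Of the 20 tested, 10 were lower at Day7 than at Day1 in limma, beside 3.59% of all genes, while edgeR called 0 and DESeq2 14. Their median log2 difference was -2.95, beside -0.48 over all genes. Ier3, a stress-induced early gene, had 1.58, 0, 0 and 1.33 at Day7, against 31.8, 76.7, 184 and 86.5 at Day1 (log2 difference -5.68, SE 1.03, limma adjusted p = 0.009). Egr1, a zinc finger transcription factor, averaged 3.55 ± 4.10 at Day7 and 184 ± 145 at Day1 (log2 difference -5.46, SE 0.96, limma adjusted p = 0.008). Fos, a subunit of AP-1, averaged 33.8 ± 55.5 at Day7 and 445 ± 312 at Day1, and Cyr61, a secreted matrix protein, 2.47 ± 3.92 at Day7 and 89.2 ± 61.4 at Day1, with log2 differences of -5.35 (SE 1.06, limma adjusted p = 0.014) and -4.98 (SE 1.26, limma adjusted p = 0.031). Jund, another AP-1 subunit and the most abundant of the list, averaged 415 ± 274 at Day7 and 236 ± 63.6 at Day1 (log2 difference 0.47, SE 0.82, limma adjusted p = 0.726).

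Likeness to each Id gene was measured as the root-mean-square difference between log2(value + 1) profiles over the 12 libraries, each centred on its own mean, among the 4355 other genes tested with a mean value of at least 10. The gene most like Id1 was Id3, at a distance of 0.81, where the median gene was at 3.19. Serpinh1 at 0.91, which encodes a collagen chaperone, Meg3 at 0.96, a long non-coding RNA, Lgals3 at 0.99, which encodes galectin-3, and Zfp579 at 1.01 followed. For Id3 the nearest were Lgals3 at 0.56, Serpinh1 at 0.64, Htra1 at 0.78, which encodes a secreted serine protease, Id1 at 0.81 and Maged1 at 0.82. Id1 and Id3 thus shared Serpinh1 and Lgals3 among their 5 nearest genes. Serpinh1 averaged 125 at 6h, 97.7 at Day1 and 7.82 at Day7, and Lgals3 averaged 202, 251 and 16.8 at the same times.

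Id2 had other neighbours. Its nearest were Mfge8 at 0.73, which encodes a secreted bridge to apoptotic cells, Gadd45g at 0.78, a stress-response gene, Vapa at 0.86, and Chchd1 and Hspa8, both at 0.88. Id3 stood at place 477 and Id1 at place 1223 in the order for Id2, whereas Id2 stood at place 82 in the order for Id3 and at place 250 in that for Id1. For Id4, whose profile holds few reads, the nearest were Pabpn1 at 0.54, Ubtf at 0.63, Tbc1d10a at 0.77, ORF61 at 0.81 and Dvl1 at 0.82. Id1 to Id3 stood at places 1038 to 2651 in its order, and a low gene lies near other genes of small range by this measure. The points of each profile share their library and its depth, so these distances are a description. The members were also picked with these time courses in view, so nothing is read from the nearness of Id1 and Id3 to each other.

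**Figure D4:**
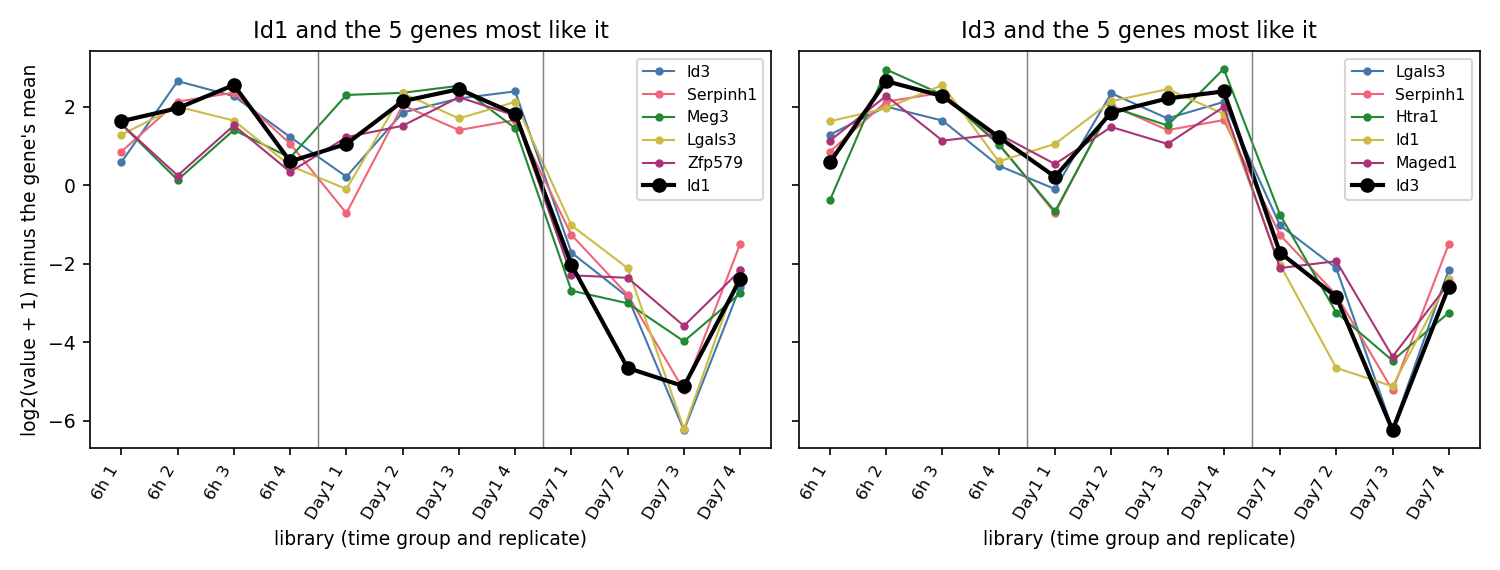
Profiles of Id1 (left) and Id3 (right), in black, and of the 5 genes most like each, in colour, over the 12 libraries in time order, as log2(value + 1) minus the mean of each gene; lines join libraries only to guide the eye, since replicates have no order. The profiles lie above their means in nearly all 6h and Day1 libraries and below them in all Day7 libraries, lowest in replicate 3 of Day7 for Id1 and Id3.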

How the data were processed

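Total RNA libraries from iChip-enriched blood were made with the Seqwell kit, per the labels' protocols. The deposited values are a signal per gene that the authors call CPM. STAR 2.7.10, HTSeq 2.0.1 and mm9 are named in the submitters' processing notes. For the annotation and the scaling step, the sources used here give nothing. The columns had unequal sums. In each library 100% of the values were whole multiples of the value of 1 read within 0.001 reads, so read counts were recovered from the deposited signal.

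Sample titles gave the time groups and the replicate numbers. Id genes were matched by name. The members, gene lists, tests and naming rules were chosen with earlier results of these data known. Genes named from a list were up to 4 called members with the largest differences and the most abundant tested member, and genes like a member were the 5 nearest profiles. Bmp2, Bmp4, Smad6, Smurf2 and further endothelial markers were named outside this rule, after their values were seen.

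For the tests, log2(value + 1) of the 12 libraries was modelled by time group alone in limma 3.58.1 (R 4.3.3, variance trend on). The filter kept 11211 genes that reached a value of 1 in 4 or more libraries, and p-values were adjusted over all of them by Benjamini-Hochberg with a threshold of 0.05. Id genes carry no p-value. edgeR 4.0.16 and DESeq2 1.42.0 on the recovered reads, other pseudocounts (0.25 and 4), filters and scalings, a term for Y-linked reads, a replicate block and the omission of each library were alternatives. Intervals on pooled reads are exact and, like the limit of 3 reads that a count of 0 allows, cover counting error only. The fitting code was tested on simulated data. Tables and plots used python 3.11.15, pandas 2.3.3, numpy 2.4.6 and matplotlib 3.10.9.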

Additional observations from a re-analysis of the deposited data

Results flagged for a closer look

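Groups of 4 libraries were examined for the Id genes, Smad6 and the genes picked from the pathway lists by the naming rule, at each time. In 11 of 71 such groups, 1 library lay far from the other 3, with a gap that took up most of the range of the group. Chance does this in about 1 in 20 groups of normally distributed values, and in groups with 3 libraries at 0 any read does it.

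Id2 in replicate 2 of 6h, at 383.6, stood far above the other 6h libraries. The same library stood apart for Inhba, at 108.7. Id4 in replicate 2 of Day7, at 0.574, was the sole Day7 library with a read. The same holds for Inhba in replicate 1 of Day7, at 1.03, for Rgmb in replicate 2 of Day7, at 0.191, and for Fst and Smad6 in replicate 4 of Day7, both at 0.333. Fstl1 in replicate 3 of 6h, at 26.8, lay above the other 6h libraries. Egr1 in replicate 3 of Day1, at 400.1, lay above the other Day1 libraries. Fos and Cyr61 in replicate 4 of Day7, at 116.4 and 8.31, lay above the other Day7 libraries. Id1 and Id3 had no such library in any group.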

How the results depend on the processing

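The Day7 differences of Id1, Id2 and Id3 from Day1 and from 6h were below 0 under all 26 alternatives, and those of Id4 under all 25 that tested it. The BMP pathway calls were not stable. Their number, against 5 for Day7 from Day1, 2 for Day7 from 6h and 0 for Day1 from 6h, was as follows. A pseudocount of 0.25 gave 2 for Day7 from Day1. A pseudocount of 4 gave 3 for Day7 from Day1 and 0 for Day7 from 6h. No filter gave 0 and 0, a mean of at least 10 gave 3 and 1, and TMM scaling gave 2 for Day7 from Day1. Scaling to reads outside haemoglobin gave 21, 1 and 2 for the 3 comparisons, and scaling to all reads gave 22, 0 and 7. A term for Y-linked reads gave 0 and 0. Fits of only the groups compared gave 16 (1 of them higher), 0 and 1. edgeR gave 0 for Day7 from Day1 and 2 (1 lower, 1 higher) for Day7 from 6h, and DESeq2 gave 12, 9 (7 lower, 2 higher) and 2. Without replicate 1 of 6h and replicate 3 of Day7, an alternative chosen after seeing the data, the numbers were 2 lower for Day7 from Day1 and 1 higher for Day7 from 6h, where both lower calls were lost. Leaving out 1 library gave 0 to 10, 0 to 4 and 0 to 0.

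Genes called over the whole table numbered 648 for Day7 from Day1, 99 for Day7 from 6h and 19 for Day1 from 6h. For Day7 from Day1 the count was 57 with no filter, 3790 scaled outside haemoglobin, 3957 scaled to all reads, 0 with the Y-linked term, 1901 in the groups compared, 1 by edgeR, 1766 by DESeq2 and 416 without those 2 libraries. For Day7 from 6h it was 5 with a pseudocount of 4, 13 with no filter, 32 outside haemoglobin, 0 on all reads, 156 with the replicate block, 7 in the groups compared and 1060 by DESeq2. For Day1 from 6h it was 0 with a pseudocount of 4, 0 with no filter, 7 at a mean of at least 10, 9 with TMM, 425 outside haemoglobin, 1183 on all reads, 2 with the Y-linked term, 45 with the replicate block, 82 in the groups compared, 9 by edgeR, 193 by DESeq2 and 4 without those 2 libraries. Leaving out 1 library gave 3 to 1185, 3 to 695 and 2 to 64. The cause of these changes was not tested.

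Among Id differences, scaling outside haemoglobin moved Id1 to -6.60 and Id2 to -3.48 for Day7 from Day1, and for Day1 from 6h it moved Id1 to 1.04 and turned Id2 to 0.07 and Id3 to 0.85. Scaling to all reads moved Id1 to -6.79 and Id2 to -3.71 for Day7 from Day1, and for Day1 from 6h it moved Id1 to 1.53 and turned Id2 to 0.56 and Id3 to 1.34. Id4 for Day7 from Day1 was -3.36 with a pseudocount of 0.25, -1.01 with 4, -1.05 with the Y-linked term, -4.76 by edgeR and -5.29 by DESeq2, and for Day7 from 6h it was -4.92 by edgeR and -5.28 by DESeq2. Leaving out 1 library, the differences for Day7 from Day1 ran from -5.92 to -4.89 for Id1, -2.34 to -1.24 for Id2, -5.56 to -4.05 for Id3 and -2.73 to -1.76 for Id4. For Day7 from 6h they ran from -5.75 to -4.71, -3.21 to -1.94, -5.58 to -4.07 and -2.38 to -1.21 in the same order. For Day1 from 6h they ran from -0.18 to 0.47, -1.28 to -0.01, -0.38 to 0.47 and -0.30 to 0.99. Libraries with the same replicate number did not deviate together (correlations -0.231 to 0.125, 1 of 12 over 0.1). The values thus gave no sign that the numbers pair samples, but weak correlations cannot exclude pairing and the labels do not state it. Beyond the counts given, the replicate block moved none by over 1.5 times. Among the 6 BMP pathway genes called it ended the call of Bmpr1a between Day7 and Day1 (limma adjusted p = 0.057).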
